A study of Canis lupus familiaris with 15 samples.

Results

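The genes of the IGF2 axis and the 3 IGF2 mRNA-binding proteins were described in canine osteosarcoma across outcome cohorts, tumor sites, breeds, sexes and ages. The members were the growth factors IGF2 and IGF1, their receptors IGF1R and IGF2R, and the RNA-binding proteins IGF2BP1, IGF2BP2 and IGF2BP3. They were found as every probeset annotated to exactly 1 of these 7 gene symbols, which gave 14 of 42860 probesets tested. Of all probesets, 29254 carried a single symbol, from 15115 genes. IGF1R had 4 probesets, IGF2R had 3, IGF1 and IGF2BP3 had 2 each, and IGF2, IGF2BP1 and IGF2BP2 had 1 each. The set of genes was chosen by the measured cohort differences of IGF2 and IGF2BP1 in earlier results of these data, so the cohort values of the members are a description and carry no test.

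IGF2 and IGF1 are secreted growth factors that signal through the receptor tyrosine kinase IGF1R, and most of each circulates bound to IGF binding proteins. IGF2 is an imprinted gene of high activity in the fetus, whereas IGF1 is under the control of growth hormone in the liver and is also made locally in bone. IGF2R, the cation-independent mannose 6-phosphate receptor, takes up IGF2 for degradation and sorts lysosomal enzymes. The IGF2 mRNA-binding proteins bind IGF2 transcripts and many others, among them MYC, and influence their stability, transport and translation. IGF2BP1 and IGF2BP3 are called oncofetal because they are active in the embryo, quiet in most adult tissues and active again in some tumors.

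Primary tumors were snap frozen at amputation, before any chemotherapy, and the RNA of each dog was measured on an Affymetrix Canine 2.0 array of its own. Tumors came from 8 dogs with a disease free interval under 100 days (DFI < 100) and from 7 dogs with an interval over 300 days (DFI > 300). Each dog was a replicate, and p-values measure the spread between dogs. The DFI < 100 cohort held 3 Greyhounds, 1 Doberman, 1 Golden Retriever, 1 Labrador Retriever, 1 Rottweiler and 1 dog of mixed breed, aged 4.4 to 10.8 years. The DFI > 300 cohort held 4 dogs of mixed breed, 1 Golden Retriever, 1 Greyhound and 1 Rottweiler, aged 7.1 to 13.4 years. Spayed females were 4 of the first cohort and 3 of the second, and all other dogs were castrated males. Forelimb tumors were 4 and 5, and hindlimb tumors 4 and 2. Giant cell tumors were 3 in the DFI < 100 cohort and 0 in the DFI > 300 cohort. All dogs were client-owned patients, so breed, age, site and outcome were not assigned and overlap in part.

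Values are the log2 of the deposited PLIER signal, a summary of the probes of a probeset. A signal at or under log2 6.79, the 95th percentile of 64 reporter control probesets averaged over the arrays, is called near background. Of 10 osteoblast markers measured, 7 were above that level on average, among them COL1A1 at 13.0 ± 0.18 (SD, n = 8) in DFI < 100 and 13.2 ± 0.10 (SD, n = 7) in DFI > 300, whereas BGLAP, DMP1 and PHEX were not. The array of DFI > 300 dog 7 had the lowest mean correlation to the other arrays, 0.841 against 0.850 to 0.874 for the remaining arrays. For IGF2 the cohort, Greyhound and age differences are given without this dog as well. In tumor pieces such as these, fewer cells of a type and less RNA per cell cannot be told apart.

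IGF2 was near background in 13 of the 15 tumors and well above it in the other 2, both from the DFI > 300 cohort. With a single probeset, absence of the IGF2 transcript cannot be read from a signal near background. The study reports IGF2 mRNA in all of its samples. In the 8 DFI < 100 dogs the log2 signal ran from 2.98 to 5.70 with a median of 3.91. In the 7 DFI > 300 dogs it ran from 3.89 to 9.68 with a median of 5.70, and dogs 7 and 1 held the highest values, 9.68 and 8.94. The next highest DFI > 300 dogs, dogs 3 and 2, reached 6.25 and 5.70, so the cohorts overlapped below the reporter level. Dog 7 was a Greyhound with a proximal humerus tumor, and dog 1 a Golden Retriever with a distal radius tumor. The cohort means were 4.05 ± 0.86 (SD, n = 8) and 6.13 ± 2.34 (SD, n = 7), a difference of -2.09 on the log2 scale (SE 0.83) for DFI < 100 minus DFI > 300. Without DFI > 300 dog 7 the difference was -1.50 (SE 0.70), and with age as a covariate it was -3.12 (SE 0.87). The spread of IGF2 over the 15 dogs was wide for the array, with an SD of 1.97 at the 93.4th percentile of all probesets.

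**Figure D1:**
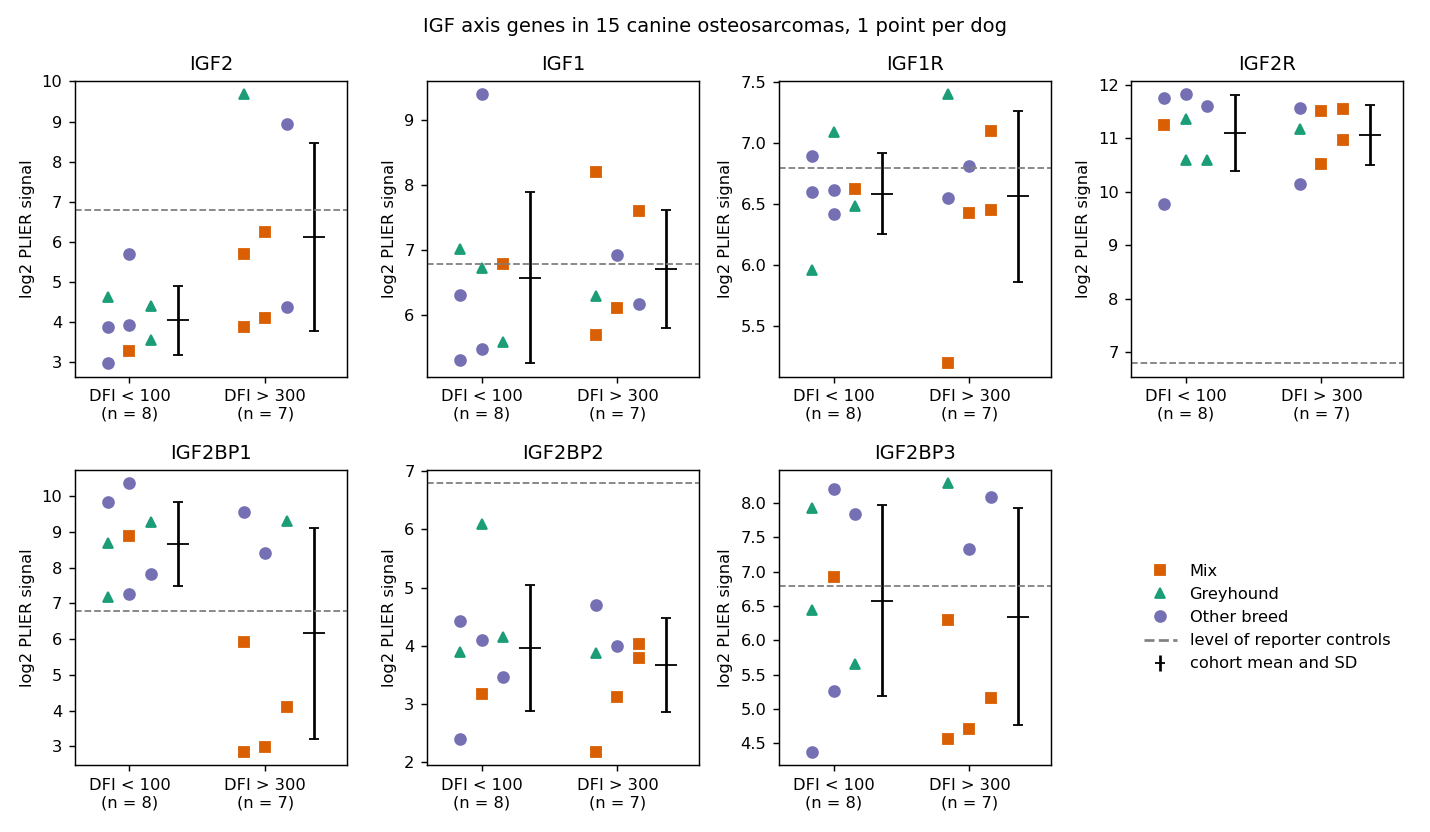
Log2 PLIER signal of the brightest probeset of each gene (y axis) in the DFI < 100 and DFI > 300 cohorts (x axis), 1 point per dog with the shape giving the breed class. Bars give the cohort mean and SD and the dashed line the reporter level of 6.79. IGF2 was above the line in 2 dogs, IGF2BP1 was below it in 4 dogs of mixed breed, and IGF2BP2 was below it in all 15.

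IGF1, which is made both in liver and in bone, overlapped widely between the cohorts. The brighter of its probesets ran from 5.31 to 9.39 with a median of 6.52 in DFI < 100, and from 5.70 to 8.20 with a median of 6.29 in DFI > 300. Tumors above the reporter level were 2 of 8 and 3 of 7. The cohort difference was -0.14 on the log2 scale (SE 0.56). Both IGF1 probesets gave the same order of dogs closely, with a Pearson r of 0.996 over 15 dogs. DFI < 100 dog 6, a Doberman with a giant cell tumor of the proximal humerus, was far above every other dog of its cohort on both, at 9.39 and 9.49.

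Within the DFI < 100 cohort the 3 giant cell tumors had IGF1 signals of 6.79, 7.02 and 9.39. The 5 osteoblastic tumors had signals of 5.31, 5.49, 5.58, 6.31 and 6.73. On this probeset the 2 subtypes did not overlap, by 6.73 against 6.79, but on the other IGF1 probeset they did, with an osteoblastic tumor at 6.69 above a giant cell tumor at 6.58. The mean difference was 1.85 on the log2 scale (SE 0.63) and did not pass limma's test (adjusted p = 0.655 over all probesets). Of the 14 member probesets 0 passed at an adjusted p of 0.05 in this comparison and 2 at an unadjusted p of 0.05, both of IGF1, against 0.00933% and 6.9% of all probesets. Without dog 6 the IGF1 difference was 1.02 (SE 0.43). Markers of other cell types differed between the subtypes as well. Of 6 osteoclast markers 5 were higher in giant cell tumors, with a median difference of 2.07 against -0.05 over all probesets and 4 at an unadjusted p under 0.05, and the log2 of their summed signal was 14.9 to 15.1 against 10.8 to 14.3 in osteoblastic tumors. Of 7 endothelial markers 6 were higher, with a median of 1.12, 2 at the unadjusted p and summed levels of 10.96 to 12.73 against 10.38 to 10.95. Of 8 macrophage markers 5 were higher, with a median of 0.26, 2 at the unadjusted p and summed levels of 12.3 to 12.9 against 10.7 to 12.4. The part of these cells in the IGF1 difference was not tested. All 3 giant cell tumors were from spayed females and 4 of the 5 osteoblastic tumors from castrated males, so subtype and sex cannot be told apart here.

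IGF1 was also the member with the largest sex difference relative to its error. In the 7 spayed females the signal ran from 5.49 to 9.39 with a median of 7.02. In the 8 castrated males it ran from 5.31 to 6.92 with a median of 6.21. The ranges overlapped, and the upper values were in females. The difference, male minus female with cohort as a covariate, was -1.13 (SE 0.49), with limma's adjusted p = 0.750. Again 0 of the 14 member probesets passed at the adjusted p and 2 at the unadjusted p, both of IGF1, against 0.00233% and 6.65% of all probesets. In osteoblastic tumors alone the difference was -0.67 (SE 0.50), and without DFI < 100 dog 6 it was -0.76 (SE 0.38). In males 8 of 8 macrophage markers had lower means (median difference -0.76), as had 6 of 6 osteoclast markers (median -0.89) and 5 of 7 endothelial markers (median -0.40), against a median of 0.04 over all probesets, with 1, 0 and 0 of them at an unadjusted p under 0.05. Their summed log2 levels overlapped between the sexes, at 10.7 to 13.9 in females and 10.6 to 12.6 in males for macrophage markers, and their part in the IGF1 difference was not tested.

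IGF1 had positive correlations with markers of blood vessels, of macrophages and of osteoclasts across the dogs, which did not pass adjustment. Its Pearson r was 0.711 with the mean of 7 endothelial markers (Spearman rho 0.632) and 0.589 with the mean of 8 macrophage markers (rho 0.596). These were 2 of 70 relations between members and marker lists. Of the 70, 4 had an unadjusted permutation p under 0.05 by Pearson r. After adjustment 0 passed (permutation p adjusted to 0.136 and 0.449 for these 2). Leaving out the 2 dogs farthest from the median of the markers gave r of 0.579 and 0.509. Within the cohorts r with the endothelial markers was 0.883 in DFI < 100 and 0.369 in DFI > 300, and with the macrophage markers 0.407 and 0.898. With the mean of the osteoclast markers rho was 0.596 as well and r 0.404 (permutation p of r adjusted to 0.636). DFI < 100 dog 6, with the highest IGF1, also had the highest signal of the endothelial receptor KDR, 11.2 against 8.52 to 10.1 in the other dogs. The mean of the endothelial markers ran from 6.96 to 8.91 in DFI < 100 and from 6.66 to 8.13 in DFI > 300, and that of the macrophage markers from 7.22 to 9.54 and from 7.06 to 10.8. The part of these cells in the IGF1 signal was not tested.

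**Figure D2:**
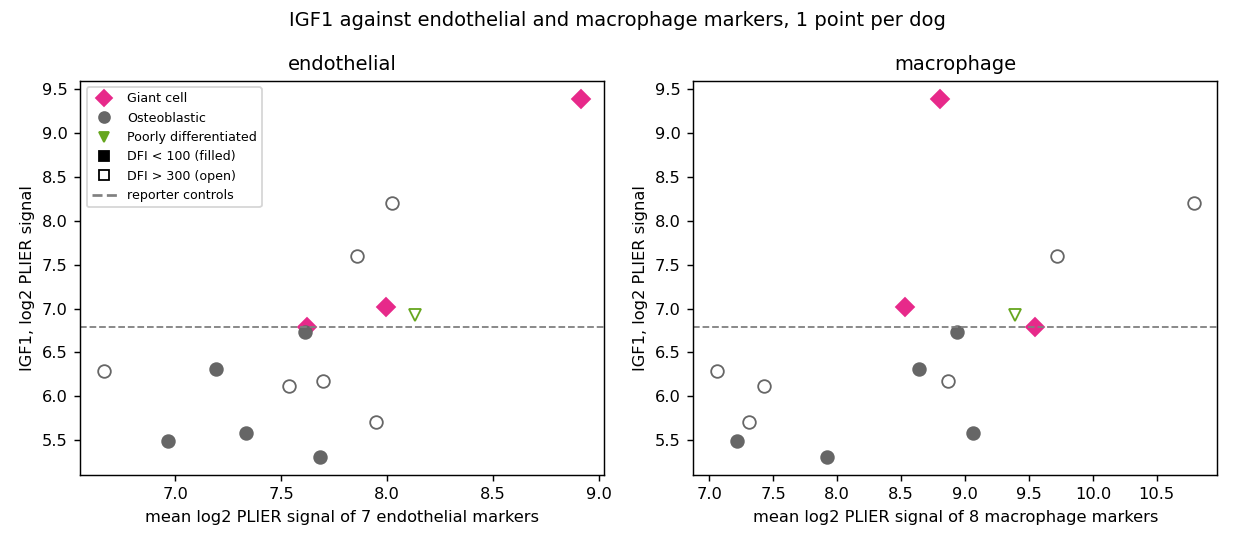
Log2 PLIER signal of IGF1 (y axis) against the mean log2 signal of endothelial (left) and macrophage (right) markers (x axis), 1 point per dog, with the shape giving the tumor subtype, filled for DFI < 100 and open for DFI > 300. The highest IGF1 value, 9.39, lies at the highest endothelial mean, 8.91, and the highest macrophage mean, 10.8, belongs to an IGF1 value of 8.20.

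The receptors had smaller spreads between dogs than the ligands. IGF1R, the signaling receptor, had a log2 signal of 5.96 to 7.09 in DFI < 100 (median 6.61) and of 5.19 to 7.40 in DFI > 300 (median 6.55), and its SD of 0.52 was that of the median probeset, 0.52. The cohort difference was 0.02 (SE 0.27). The brightest IGF1R probeset was above the reporter level in 5 of 15 tumors, and the 4 probesets averaged 6.57, 6.51, 5.45 and 5.44, all at or under that level. The brightest pair of IGF1R probesets had r = 0.968 over 15 dogs, while the remaining pairs had r of 0.41 to 0.63. DFI > 300 dog 2 was the lowest dog on both of the brightest probesets, at 5.19 and 5.15.

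IGF2R, the scavenging receptor, was above the reporter level in all 15 tumors on all 3 probesets. On the brightest its signal ran from 9.78 to 11.8 in DFI < 100 (median 11.3) and from 10.1 to 11.6 in DFI > 300 (median 11.2). Its mean over the dogs, 11.1 ± 0.62 (SD, n = 15), lay at the 98.1th percentile of probeset means. The cohort differences of the 3 probesets were 0.04 (SE 0.32), 0.18 (SE 0.37) and 0.37 (SE 0.38), each smaller than the spread within a cohort. The Rottweilers had the 2 lowest signals, 9.78 and 10.1, and the Golden Retrievers had 11.8 and 11.6.

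IGF2R averaged higher in forelimb tumors, without passing the test. On the brightest probeset the 4 forelimb tumors of DFI < 100 had 11.4, 11.6, 11.8 and 11.8 and the 4 hindlimb tumors 9.78, 10.6, 10.6 and 11.3. In DFI > 300 the 5 forelimb tumors ran from 10.1 to 11.6 and the 2 hindlimb tumors had 10.5 and 11.6, so the limbs overlapped there. With cohort as a covariate the difference, forelimb minus hindlimb, was 0.65 (SE 0.30) with limma's adjusted p = 0.964. Without DFI < 100 dog 2, a Rottweiler with a femur tumor, it was 0.47 (SE 0.28). Without the mixed-breed dogs, a subset chosen after the data were seen, it was 1.32 (SE 0.36). That subset holds no hindlimb tumor of DFI > 300, so 1.32 rests on DFI < 100 dogs alone, where the limbs did not overlap as they did in DFI > 300. Other lists ran the opposite way between the limbs. Of 15 genes of lysosomal sorting by mannose 6-phosphate 1 had a higher and 14 a lower mean in forelimb tumors (median difference -0.47, 3 at an unadjusted p under 0.05). Of 8 macrophage markers 8 were lower (median -1.08, 2 at that p), and of 6 osteoclast markers 6 were lower (median -1.43, 0 at that p). Over all probesets the median was 0.01, and 4.37% had an unadjusted p under 0.05. The summed log2 level of the osteoclast markers was 10.5 to 15.1 in forelimb and 13.6 to 14.9 in hindlimb tumors, and that of the macrophage markers 10.6 to 12.7 and 11.2 to 13.9. The part of these cells in the limb differences of the members was not tested.

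IGF2BP1, the RNA-binding protein also called IMP1, was above the reporter level in 11 of the 15 tumors. All 8 DFI < 100 tumors were above it, from 7.17 to 10.4 with a median of 8.79. The DFI > 300 tumors fell into 3 that were above it, at 8.41, 9.31 and 9.57, and 4 that were below it, at 2.84, 2.97, 4.11 and 5.91. The mean was 8.67 ± 1.17 (SD, n = 8) in DFI < 100 and 6.16 ± 2.95 (SD, n = 7) in DFI > 300, a difference of 2.51 on the log2 scale (SE 1.05). The SD over all dogs, 2.47, was at the 94.6th percentile of all probesets.

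The 4 tumors with IGF2BP1 near background were exactly those of the 4 mixed-breed dogs in the DFI > 300 cohort. The only mixed-breed dog of the DFI < 100 cohort had a signal of 8.88. Among Golden Retrievers the DFI < 100 dog had 10.4 and the DFI > 300 dog 8.41, among Rottweilers they had 7.28 and 9.57, and among Greyhounds the 3 DFI < 100 dogs had 7.17, 8.70 and 9.29 and the DFI > 300 dog 9.31. Hence in the breeds present in both cohorts other than mixed breed the cohorts had no common direction. Without the mixed-breed dogs, a subset chosen after these values were seen, the cohort difference was -0.46 (SE 0.71). It was opposite in sign to that of all dogs but smaller than its SE. That subset drops the 4 DFI > 300 tumors near background and keeps the 3 above the reporter level, so loss of the difference was built into it. Over all dogs with age as a covariate the cohort difference was 1.70 (SE 1.22). Mixed breed, older age and DFI > 300 fell largely on the same dogs and cannot be told apart in 15 tumors.

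**Figure D3:**
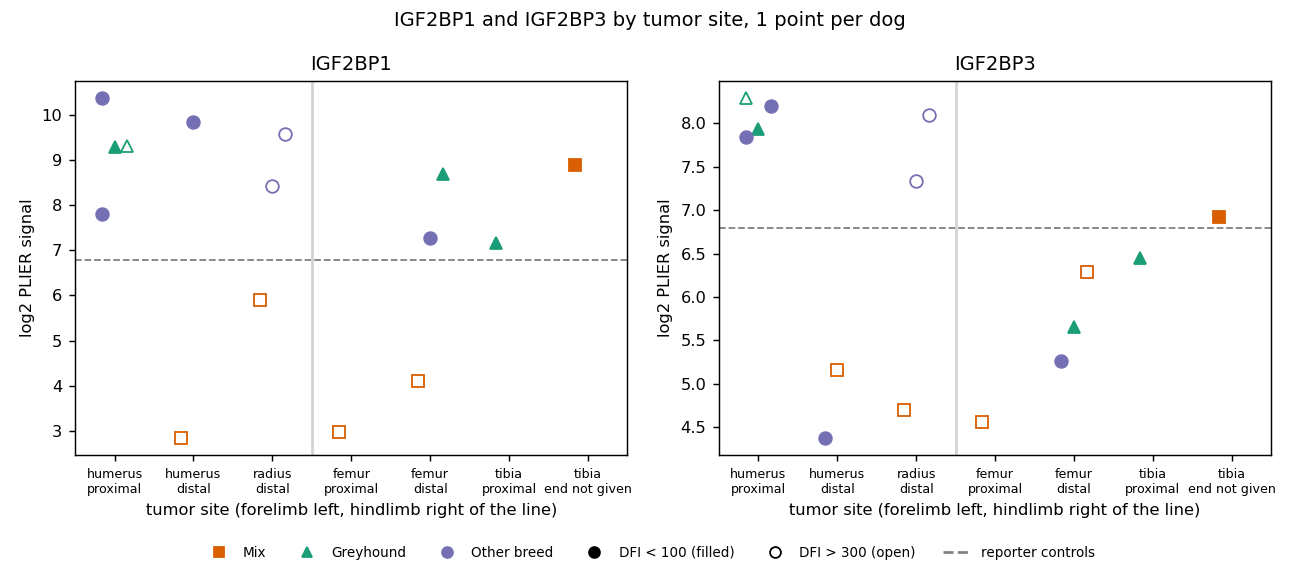
Log2 PLIER signal of IGF2BP1 (left) and IGF2BP3 (right) on the y axis by tumor site on the x axis, 1 point per dog, with the shape giving the breed class, filled for DFI < 100 and open for DFI > 300. The dashed line is the reporter level of 6.79. The 4 open squares below the line for IGF2BP1 are the mixed-breed DFI > 300 dogs, and the 4 proximal humerus tumors lie between 7.85 and 8.29 for IGF2BP3.

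IGF2BP1 averaged higher in forelimb than in hindlimb tumors of both cohorts, without passing the test. In DFI < 100 the 4 forelimb tumors had 7.81, 9.29, 9.85 and 10.4, and the 4 hindlimb tumors 7.17, 7.28, 8.70 and 8.88. In DFI > 300 the 5 forelimb tumors ran from 2.84 to 9.57 with a median of 8.41, and the 2 hindlimb tumors had 2.97 and 4.11. The difference with cohort as a covariate was 2.30 (SE 0.96), with limma's adjusted p = 0.964. IGF2BP1 was the 1 of 14 member probesets with an unadjusted p under 0.05 for limb, and 0 passed at the adjusted p, against 4.37% and 0% of all probesets. Both hindlimb tumors of DFI > 300 were from mixed-breed dogs, so without the mixed-breed dogs that cohort had no hindlimb tumor. The limb difference in that subset, chosen after the data were seen, was 1.62 (SE 0.63) and rests on DFI < 100 dogs alone.

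IGF2BP3, or IMP3, was above the reporter level in 7 of the 15 tumors, 4 of DFI < 100 and 3 of DFI > 300. Its signal ran from 4.37 to 8.20 with a median of 6.68 in DFI < 100, and from 4.56 to 8.29 with a median of 6.29 in DFI > 300. The cohort difference was 0.23 (SE 0.72), and without the mixed-breed dogs it was -1.37 (SE 0.83), opposite in sign. That subset was chosen after the data were seen, and its only DFI > 300 tumors are the 3 above the reporter level. The pair of IGF2BP3 probesets had r = 0.992 over 15 dogs. When the dogs were laid out by site, the 4 proximal humerus tumors were within 7.85 to 8.29, whereas the 2 distal humerus tumors had 4.37 and 5.16, and the 4 femur tumors had 4.56 to 6.29. The 3 distal radius tumors had 4.70, 7.33 and 8.09. This grouping was noticed in the values and was not tested. The forelimb minus hindlimb difference was 1.13 (SE 0.72), with limma's adjusted p = 0.964.

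IGF2BP2, or IMP2, was near background in all 15 tumors, with a signal of 2.41 to 6.09 in DFI < 100 and of 2.18 to 4.70 in DFI > 300. The cohort difference was 0.29 (SE 0.47). With a single probeset near background, neither presence nor absence of the transcript can be read from it. Its r with the mean of 10 osteoblast markers was 0.691 (Spearman rho 0.671), one of the 70 relations above, with a permutation p adjusted to 0.136. It was 0.625 without the 2 dogs farthest from the median of the markers, and 0.775 and 0.483 within DFI < 100 and DFI > 300.

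Greyhounds and age gave no member past the test. Of the 14 member probesets 0 passed limma at the adjusted p for Greyhounds against other breeds, and 0 at an unadjusted p under 0.05, against 0% and 4.74% of all probesets. IGF2 had the widest Greyhound difference, 1.47 (SE 0.92, adjusted p = 0.968). The 4 Greyhounds had IGF2 signals of 3.56, 4.41, 4.62 and 9.68, so that a single dog, DFI > 300 dog 7, carried it, and without this dog it was 0.25. For age 0 member probesets passed the adjusted p and 1 the unadjusted p, against 0% and 5.55% of all probesets. That 1 was IGF2, with a slope of -0.39 per year on the log2 scale (SE 0.17, limma's adjusted p = 0.893) when cohort was a covariate, -0.23 (SE 0.17) without DFI > 300 dog 7 and -0.06 (SE 0.20) with no cohort term.

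No pair of members passed the test of correlation over the 15 dogs. Of 21 pairs 0 had an adjusted permutation p under 0.05 by Pearson r, by Spearman rho or after the cohort means were removed, and 1 had an unadjusted permutation p under 0.05. That pair was IGF2BP1 and IGF2BP3, with r = 0.541 and rho = 0.421 (permutation p = 0.037, adjusted to 0.701). Its r was 0.586 with the cohort means removed. It was 0.341 without the 2 dogs farthest from the median of IGF2BP1, so that it rests in part on those dogs. In DFI > 300 r was 0.841 and in DFI < 100 it was 0.096, a difference that was not tested. The mixed-breed DFI > 300 dogs were under the reporter level for both genes, with IGF2BP3 at 4.56, 4.70, 5.16 and 6.29. For IGF2BP3, DFI < 100 dogs of other breeds were under it too, among them dogs at 4.37, 5.26 and 5.66.

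Over all 15 dogs, with the cohort means left in, IGF2 had an r of at most 0.391 with the proteins named for binding its mRNA. Its r with IGF2BP1 was 0.05 over 15 dogs (rho 0.01, permutation p = 0.877). With the cohort means removed r was 0.473, and within DFI < 100 and DFI > 300 it was 0.410 and 0.484. With the cohort means left in, leaving out the 2 dogs with high IGF2 turned the r of 0.05 to -0.343. This value still holds the cohort differences of IGF2 and IGF2BP1, which were opposite in sign over all dogs. DFI > 300 dogs 1 and 7, the 2 with high IGF2, both had IGF2BP1 well above the reporter level, at 8.41 and 9.31, but so did 9 of the 13 tumors with IGF2 near background. The r of IGF2 was 0.391 with IGF2BP3, 0.143 with IGF2BP2 and 0.324 with IGF1R. Each of these was under 0 without dogs 1 and 7, again with the cohort means left in. Within DFI < 100, which held neither dog, r was 0.175 with IGF2BP3, 0.410 with IGF2BP2 and -0.035 with IGF1R.

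**Figure D4:**
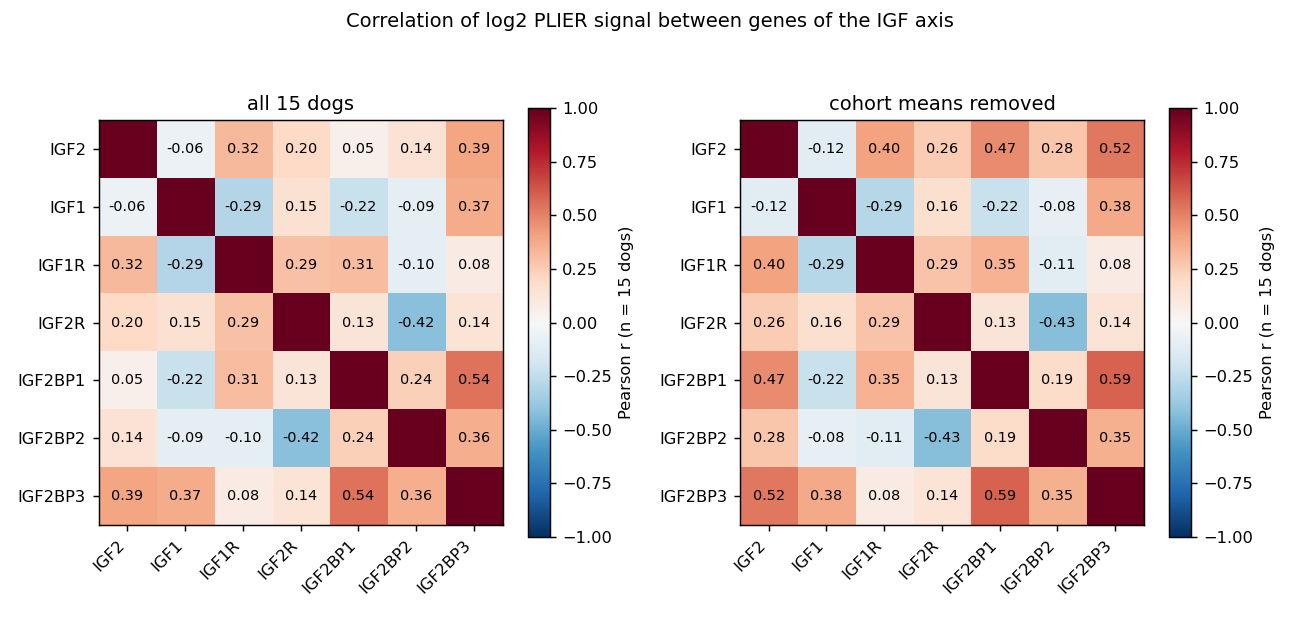
Pearson r between the log2 signals of the 7 genes (brightest probeset each) over 15 dogs, for all dogs (left) and with the cohort means removed (right), with blue below and red above 0. The highest value is that of IGF2BP1 and IGF2BP3, 0.54 and 0.59, and the pair IGF2 and IGF2BP1 goes from 0.05 to 0.47 when the cohort means are removed.

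The genes most like each of 3 members over the dogs were taken from 6446 named genes with a mean above the reporter level, members left out. For IGF2BP1 they were SCFD1, a factor of vesicle transport (r = 0.930), FANCD2, of DNA crosslink repair (0.880), the splicing factor DDX23 (0.872), the translation release factor ETF1 (0.869) and the ATPase RUVBL1 (0.868). For IGF1 they were KANK3 (0.868), ADGRF5 (0.863), the thioredoxin reductase TXNRD1 (0.852), the vascular growth factor receptor KDR (0.849) and AFTPH (0.843). For IGF2 they were MAGED2 (0.859), CHID1 (0.849), DPEP1 (0.807), DCP1B (0.789) and the collagen COL14A1 (0.785). Without the 2 dogs farthest from the median of IGF2, those of IGF2 fell to 0.793, 0.395, 0.219, 0.608 and 0.065. Hence CHID1, DPEP1 and COL14A1 followed IGF2 mainly through these dogs, DFI > 300 dogs 1 and 7. These are the highest of many values, given as a description.

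The genes around the axis were set beside the members as lists in the cohort comparison. In all lists together 0 genes passed limma at an adjusted p of 0.05, and the same count was 0 with the methods' t-test, against 0% of all probesets. Of 13 IGF binding proteins and their proteases 7 were higher and 6 lower in DFI < 100, with a median difference of 0.03 against 0.01 over all probesets, and 0 had an unadjusted p under 0.05. IGFBP7, a secreted protein of vessels and matrix, had 11.8 ± 0.56 (SD, n = 8) and 12.3 ± 0.58 (SD, n = 7), a difference of -0.57 (SE 0.29). IGFBP6, which prefers IGF2, differed by -0.58 (SE 0.60).

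Of 29 genes of IGF and insulin receptor signaling 18 were higher and 11 lower, with a median of 0.03, and 1 of them had an unadjusted p under 0.05 against 3.68% of all probesets. This was the adaptor IRS1, which carries the signal from IGF1R, with 6.56 ± 0.88 (SD, n = 8) and 5.76 ± 0.53 (SD, n = 7), a difference of 0.79 (SE 0.37) near background. GRB10, an inhibitor of the receptors, differed by 0.79 (SE 0.48), and PIK3R1, a regulatory subunit of PI3 kinase, by -0.48 (SE 0.34). In the growth hormone axis 6 of 9 genes were higher and 3 lower, with the receptor GHR at -0.39 (SE 0.35). Of 15 genes of lysosomal sorting by mannose 6-phosphate, the other role of IGF2R, 7 were higher and 8 lower. Among these HEXA and GLB1, both lysosomal enzymes, differed by -0.37 (SE 0.17) and -0.44 (SE 0.29).

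Of 18 targets and partners of the IGF2 mRNA-binding proteins 11 were higher and 7 lower in DFI < 100, with a median of 0.08 and 0 at an unadjusted p under 0.05. MYC, whose mRNA IGF2BP1 is known to protect, had 7.19 ± 0.75 (SD, n = 8) and 6.47 ± 0.78 (SD, n = 7), a difference of 0.71 (SE 0.38). Across the dogs MYC had r = 0.559 with IGF2BP1 (rho 0.479). The adhesion receptor CD44, whose mRNA the study also lists as stabilized by IGF2BP1, ran the opposite way, with r = -0.598 (rho -0.589). These were the 2 of 18 relations with an unadjusted permutation p under 0.05. After adjustment 0 of 18 passed (adjusted permutation p = 0.273 for both). Within DFI < 100 and DFI > 300 r was -0.08 and 0.707 for MYC and -0.643 and -0.793 for CD44. Without the 2 dogs farthest from the median of MYC r was 0.368, and without the 2 farthest from that of CD44 it was -0.357.

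All 9 oncofetal regulators measured were near background on average, and 2 were higher and 7 lower in DFI < 100, with a median of -0.43. Only DPPA4, at -0.54 (SE 0.25), had an unadjusted p under 0.05, 1 of 9 genes against 3.68% of all probesets. Of 10 imprinted growth genes 6 were higher and 4 lower, with a median of 0.06. The means of some of these genes were set by 1 dog, which the counts and medians of these lists include. PLAG1, a transcription factor that is known to activate IGF2, had a signal of 9.10 in DFI > 300 dog 7, the dog with the highest IGF2, and of 3.97 to 4.72 in the other 14 dogs. DLK1, an imprinted gene of fetal tissue, had 9.41 in the same dog and 4.98 to 6.05 in the others, and its other probeset had 6.80 there against 2.51 to 4.33. DFI > 300 dog 1, the second dog with high IGF2, had 4.22 for PLAG1 and 5.49 for DLK1, within the range of the other tumors. These dogs were singled out after their values were seen. PLAG1 has a single probeset here, and dog 7 is the one whose array had the lowest mean correlation to the others.

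**Figure D5:**
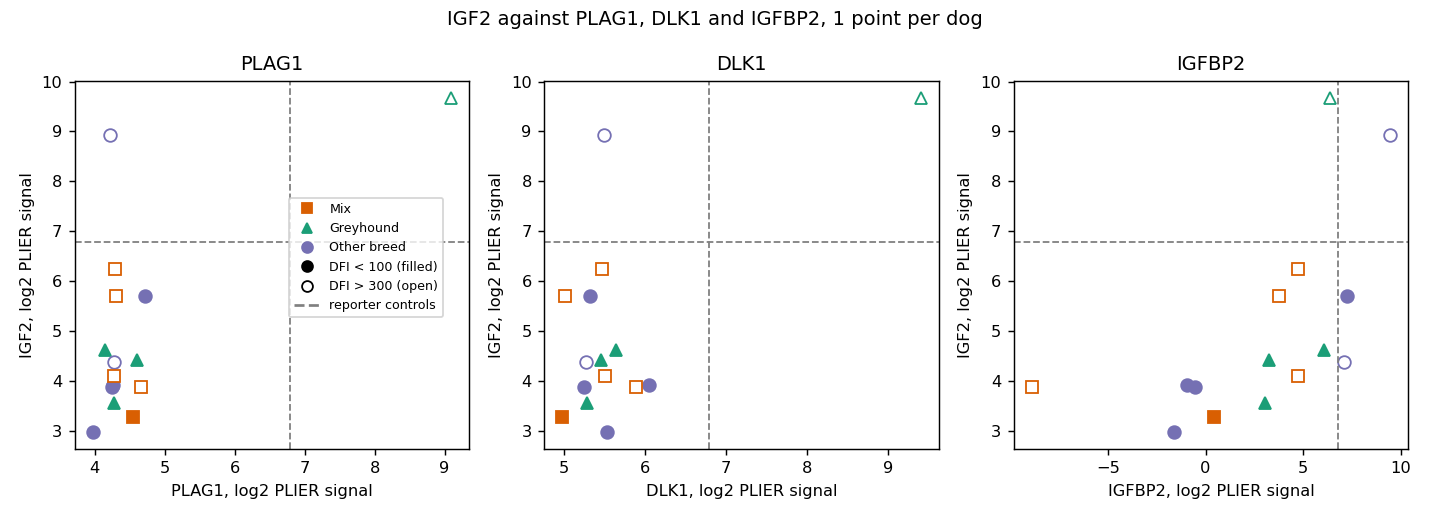
Log2 PLIER signal of IGF2 (y axis) against PLAG1, DLK1 and IGFBP2 (x axes), 1 point per dog, with the shape giving the breed class, filled for DFI < 100 and open for DFI > 300, and dashed lines at the reporter level of 6.79. A single dog, with IGF2 at 9.68, is high for PLAG1 and DLK1, and IGFBP2 is highest, at 9.46, in the dog with IGF2 at 8.94.

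IGFBP2, a binding protein with a preference for IGF2, followed IGF2 by rank. Its signal was highest in DFI > 300 dog 1, at 9.46, and it ran from -8.90 to 7.25 in the other dogs. Over the 15 dogs Spearman rho was 0.793 (permutation p adjusted to 0.018) and Pearson r 0.598 (adjusted permutation p = 0.220). This was 1 of 31 relations of IGF2 with binding proteins, oncofetal and imprinted genes, a family put together after the values were seen, and the only one past an adjusted p by rank, while 0 were by Pearson r. The Spearman coefficient was 0.786 in DFI < 100 and 0.643 in DFI > 300, and 0.758 to 0.837 when any single dog was left out. Without the 2 dogs with high IGF2 it was 0.747 over 13 dogs, and without the 2 dogs farthest from the median of IGFBP2 r was 0.589. IGF2 was above the reporter level in only 2 dogs and IGFBP2 in 3, so most of these ranks are between signals near background, and what sets the order there was not tested.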

How the data were processed

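The authors extracted total RNA with Trizol and RNeasy columns, kept RNA of good integrity, ran the arrays as 2 batches, dropped 1 sample on a pathologist's review and used PLIER, within Affymetrix Expression Console, to summarise probesets. The deposited values are PLIER intensities on the linear scale. Its version, any earlier normalization and the batch an array belonged to were not stated, which left no values within batches. RMA values and PCR data were not analysed here. An unknown batch could shift all genes of an array.

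Of 43035 probesets, 175 controls were left out. The log2 of the rest was fitted with limma 3.58.1 in R 4.3.3, with p adjusted by Benjamini-Hochberg over 42860 probesets. Limb, Greyhound, sex and age were fitted with cohort as a covariate, and giant cell against osteoblastic tumors within DFI < 100. Cohorts came from the labels, while sex, site and subtype came from the study's population table. Unless stated, the brightest probeset by mean represents a gene. Correlations were tested by 100000 permutations, or all of them within a cohort. The number of arrays limits the precision. Probesets whose identifier ends in _s_at can match several transcripts.

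The members and gene lists were chosen with earlier results of these data known. Named genes were the members, up to 4 genes of each list with the smallest p in the cohort comparison, and the 5 genes closest to IGF2, IGF2BP1 and IGF1, and IGFBP2 and CD44 were added after their values were seen. Alternatives were an offset of 16 before log2, quantile normalization, probesets above the median, each dog left out, no Greyhounds, osteoblastic tumors only, no cohort term, age or the 3 prime to 5 prime ratio of controls as a covariate, the unpaired test of the study (the methods' t-test) and, chosen after the data were seen, no mixed-breed dogs. The scripts were tested on simulated data with differences of known size.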

Additional observations from a re-analysis of the deposited data

Results flagged for a closer look

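The highest and lowest dog of each cohort was set against the others of its cohort by Dixon's ratio in 40 groups. Among the member probesets 3 of 28 groups were marked, where chance alone marks about 1 in 20 independent groups. Probesets of 1 gene are not independent, and both IGF1 probesets marked the same dog, so no excess can be read from this count. A further 5 of 12 groups were marked for 6 other genes, several of which had been picked after their values were seen, so that this count is not to be set against chance. IGF1 in DFI < 100 dog 6 was at 9.39 and 9.49 on its probesets, with the nearest dog at 7.02 and 6.80, and KDR in the same dog was at 11.2 with the nearest at 9.80. In DFI > 300 dog 7 PLAG1 was at 9.10 with the nearest dog at 4.66, and DLK1 at 9.41 with the nearest at 5.89. One IGF1R probeset in DFI > 300 dog 2 was at 5.15, below the nearest dog at 6.43. CD44 in DFI < 100 dog 7 was at 5.87 with the nearest at 7.15, and IGFBP2 in DFI > 300 dog 5 was at -8.90 with the nearest at 3.78, far below the reporter level.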

How the results depend on the processing

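Of 516 values recomputed under an alternative for 25 results, 511 kept their direction and their side of the threshold or moved by less than the spread between dogs. This rule is loose, because 0 members passed the adjusted p and a value could shrink and still count as kept. The Greyhound difference of IGF2, 1.47, counted as kept at 0.25, and the cohort difference of IGF1, -0.14, at 0.11. Correlations with 1 dog left out were judged by sign alone. Without mixed-breed dogs the cohort difference of IGF2BP1 was -0.46 in place of 2.51, and that of IGF2BP3 was -1.37 in place of 0.23. That subset leaves out every DFI > 300 tumor near background for either gene, so shifts of this direction were built into it. Why those tumors were low was not tested. Otherwise the IGF2BP1 difference lay between 1.70 with age as a covariate and 3.50 in osteoblastic tumors, and was 1.95 to 3.07 with 1 dog left out. That of IGF2 lay between -3.51 without mixed-breed dogs and -1.50, and was -2.46 to -1.50 with 1 dog left out. IGF2 was not among the probesets above the median by mean. The correlation of IGF2 and IGF2BP1 ranged from -0.11 to 0.16 with 1 dog left out and was below 0 without DFI > 300 dog 1, 5 or 7 (-0.01, -0.04 and -0.11). Members past the adjusted p were 0 for limb, Greyhound, sex, age and giant cell tumors under every alternative run. No paired analysis was possible because the labels give no replicate numbers and each dog gave 1 tumor. Many members lie near background, where signal over background limits what differences can be read.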
